A study of Mus musculus with 12 samples.

Results

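The 10 genes described here are markers of resident macrophages, the long-lived macrophages that sit along vessels and in the stroma of fat, and were taken from a fixed list of symbols: Mrc1, Clec10a, Cd163, Lyve1, Folr2, Timd4, Vsig4, Marco, Retnla and Cbr2. They are 10 of 49315 genes in the count table, each matched to 1 Ensembl identifier, and all 10 passed the filter on low counts that left 18702 genes for testing. The rule used symbols and no measured value, but the members were chosen with earlier results of these data known.

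Resident adipose tissue macrophages lie close to blood vessels, where they take up proteins, lipids and iron-carrying complexes from the blood and clear dying cells. The receptors that mark them recognise sugars, haemoglobin complexes, hyaluronan, folate, complement fragments or phosphatidylserine. In obesity, macrophages that derive from blood monocytes collect around dying adipocytes and carry another set of genes, among them Trem2, a lipid-sensing receptor. Most of the 10 genes are not restricted to a single cell type: Lyve1 is also a marker of lymphatic endothelium, Retnla is induced by interleukin 4 and interleukin 13 in several cell types, and Marco and Timd4 also mark macrophages of the body cavities.

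RNA was sequenced from the epididymal white adipose tissue (eWAT) of mice that ate a high-fat diet (HFD, 60% fat) for 12 weeks and were injected intraperitoneally every week. The 4 groups of 3 libraries each were miR-181a2b2 flox/flox (flox) mice given vehicle, flox mice given methotrexate (MTX, an antifolate drug) at 1 mg/kg, miR-181a2b2-/- (KO) mice given vehicle and KO mice given MTX at 1 mg/kg. KO mice lack the microRNA locus in the whole body, the flox controls carry its floxed alleles, and the labels give no other strain or age. The study asked how MTX acts in obese fat and whether it needs this microRNA locus. Values within a group follow the order of replicates 1, 3 and 4 for flox vehicle, 1, 2 and 3 for KO vehicle, 1, 2 and 4 for flox MTX and 2, 3 and 4 for KO MTX.

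Depth ranged from 19495310 to 23976469 counts per library. The precursors of the deleted locus, Mir181a-2 and Mir181b-2, were at 0 counts throughout, the exception being 2 counts of Mir181a-2 in replicate 4 of flox MTX, so the genotype labels could not be checked on them. A list of 11 adipocyte genes summed to 18030 to 74060 CPM (counts scaled to the size of the library with TMM factors), so fat was present in every library. Genes of the epididymis, the organ that this fat pad adjoins, were present in the flox vehicle libraries: 17 of them summed to 5598, 15650 and 1829 CPM there, to 619.6 CPM in replicate 1 of flox MTX, and elsewhere to between 1.27 and 23.4 CPM. A list of 16 general macrophage genes summed to 960.1, 695.7 and 1323 CPM in flox vehicle, to 5080, 5476 and 8464 CPM in KO vehicle, to 3532, 6545 and 1178 CPM in flox MTX and to 8585, 11290 and 7034 CPM in KO MTX. Flox MTX replicate 4 was therefore in the range of the flox vehicle libraries for this list, and the other flox MTX libraries were not.

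Under vehicle, 7 of the 10 genes were higher in KO than in flox eWAT, by 1.79-fold (Cbr2) to 7.78-fold (Folr2). In all 7 the libraries of the groups did not overlap, and the share of all genes without overlap was not counted. Mrc1, Clec10a, Cd163, Lyve1, Folr2, Vsig4 and Cbr2 made up the 7, and Marco, Timd4 and Retnla did not pass the test. A gene was called when edgeR's quasi-likelihood test, adjusted over all genes, gave p below 0.1 and the change was 1.5-fold or more. Of all genes tested, 31.7% were called in this comparison and 13.9% were called higher. The median log2 fold change was 1.61 over the 10 genes and -0.056 over all genes tested. The epididymis genes moved with this comparison, with 9 of the 12 tested called lower in KO, and their part in the result was not tested. Of the 11 adipocyte genes, 3 were called lower in KO (Cfd, Retn and Slc2a4, at log2 differences of -3.13, -1.87 and -1.28) and the median was -0.71, and their part was not tested either. With flox vehicle replicate 3 and flox MTX replicate 1 left out together, an alternative chosen after the data were seen, the 7 genes were still called, beside 26.0% of all genes. At a log2 limit of 1.5 in place of 1.5-fold, 5 were called, without Cd163 and Cbr2, beside 16.2% of all genes. In whole tissue, more macrophages and more RNA of a gene per macrophage cannot be told apart.

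In flox mice, 9 of the 10 genes were higher with MTX than with vehicle, by 1.97-fold (Cbr2) to 10.5-fold (Vsig4). Retnla was the exception. Of all genes tested, 24.2% were called and 8.09% were called higher. The median log2 fold change of the 10 genes was 1.69, against 0.051 over all genes. The groups did not overlap for 6 of the 9, namely Vsig4, Marco, Lyve1, Cd163, Timd4 and Cbr2. For Mrc1, Clec10a and Folr2, flox MTX replicate 4 fell within the flox vehicle range. How many of all genes tested lay apart in this way was not determined. The count of members called rested on single libraries: it was 4 without flox vehicle replicate 3, which had the most epididymis RNA, and 7 or 8 without any other flox library. The share called over all genes was 11.7% without flox vehicle replicate 3 and 19.6% to 30.9% without any other flox library. The count was 3 of 10 (Vsig4, Lyve1 and Marco), beside 12.9% of all genes, without flox vehicle replicate 3 and flox MTX replicate 1. At a log2 limit of 1.5, Cd163 and Cbr2 were not called, which left 7, beside 14.9% of all genes. This comparison and the one between KO and flox under vehicle share their flox vehicle libraries.

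In KO mice and between genotypes under MTX, no member was called by edgeR. Between KO and flox under MTX, 0% of all genes were called, although 4576 had an unadjusted p below 0.05 and DESeq2 called 2740 (16.9%). Of the members, Marco, Clec10a and Cbr2 had an unadjusted p below 0.05, and DESeq2 called Clec10a and Marco. Without flox MTX replicate 2, the library of that group with the most macrophage RNA, edgeR called 3 members higher in KO (Clec10a, Folr2 and Mrc1), and 20.8% of all genes. Of the 11 adipocyte genes, 8 had an unadjusted p below 0.05 between genotypes under MTX, all lower in KO (median of the list -1.23), and 0 were called. Between MTX and vehicle in KO mice, 0% of all genes were called, where 1491 had an unadjusted p below 0.05, and DESeq2 called 276. Among the members, Marco alone had an unadjusted p below 0.05 there, and DESeq2 called none of the 10.

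**Figure D1:**
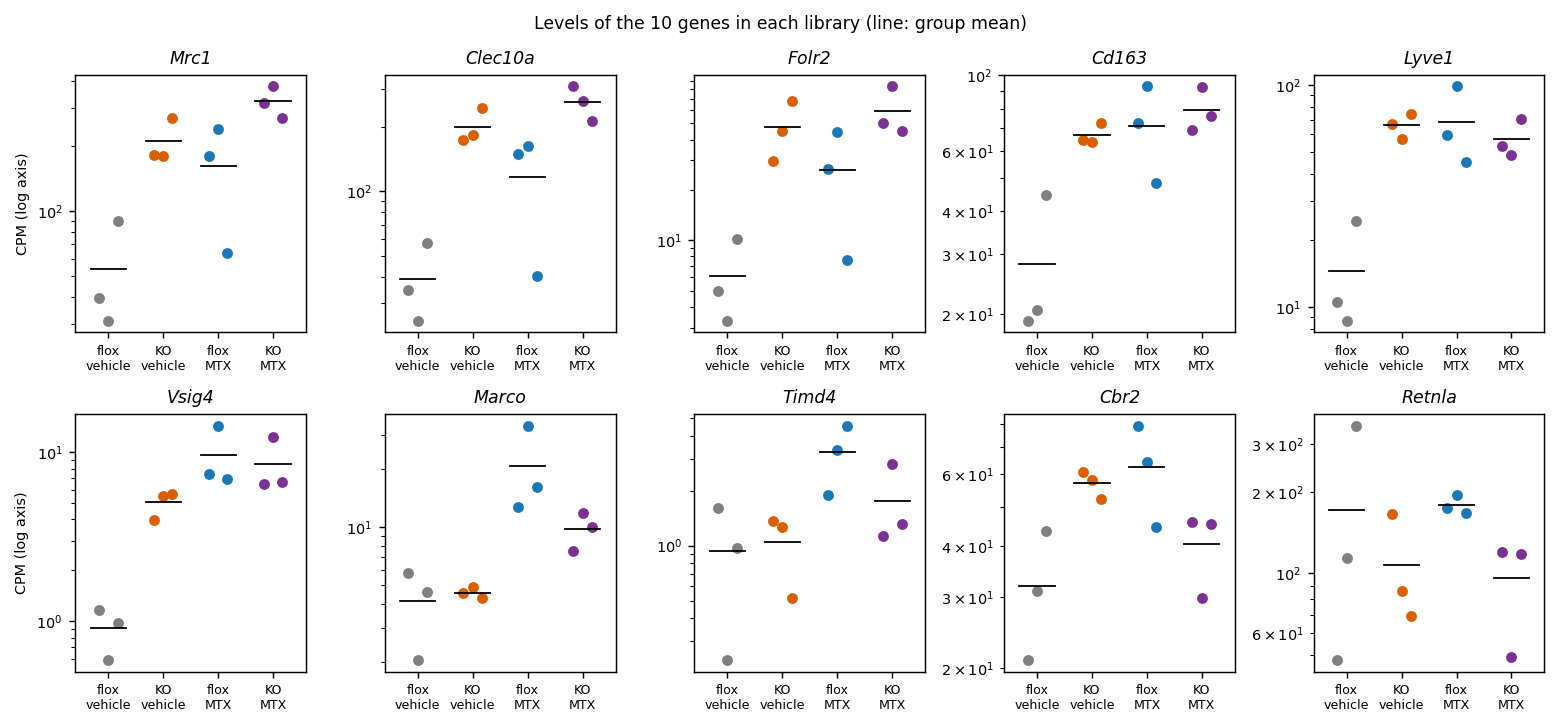
Level of each of the 10 genes in every library, in CPM on a log axis, by group, with 1 point per library and a line at the group mean. All genes except Retnla have their lowest group mean in flox vehicle, where the means of Marco (4.145 CPM) and Timd4 (0.937 CPM) are close to KO vehicle (4.57 and 1.05 CPM). Marco lies highest in flox MTX (12.7 to 33.6 CPM), and Retnla ranges from 47.8 to 351 CPM within flox vehicle alone.

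Per kilobase of exon, so that genes can be compared, Retnla had the highest level, with a mean over the 12 libraries of 230.5 CPM per kb. Clec10a followed at 53.4, Cbr2 at 36.2, Mrc1 at 29.3, Folr2 at 22.6, Lyve1 at 17.7, Cd163 at 11.2, Marco at 5.10, Vsig4 at 4.05 and Timd4 at 0.807 CPM per kb. Retnla stood apart, since its lowest group mean (159.6 CPM per kb) was above the highest of any other member (90.4, Clec10a in KO MTX). From Clec10a down to Timd4, the group means of neighbours in this order overlapped.

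Mrc1, the mannose receptor, takes up glycoproteins with mannose or fucose ends (ENSMUSG00000026712, chr2:14229392-14332057, plus strand, GRCm38). Mrc1 was at 39.7, 31.1 and 90.1 CPM in the flox vehicle libraries and at 182, 180.0 and 270.0 CPM in the KO vehicle libraries. Every KO library exceeded every flox library, and the difference on the log2 scale was 1.97 (SE 0.48, adjusted p = 0.0114). With MTX, Mrc1 was at 180.1, 239 and 63.8 CPM in flox and at 318, 378 and 270.3 CPM in KO mice. Replicate 4 of flox MTX lay below the highest flox vehicle library, so these groups overlapped, and the difference of MTX from vehicle in flox mice was 1.59 (SE 0.48, adjusted p = 0.0402). Leaving out flox vehicle replicate 1, flox vehicle replicate 3 or flox MTX replicate 2 ended that call, at log2 differences of 1.41, 1.31 and 1.20. The KO MTX libraries were the highest of all 12, at 322 ± 53.9 CPM (mean ± SD, n = 3), and differed from flox MTX by 1.00 (SE 0.47, adjusted p = 0.217) and from KO vehicle by 0.61 (SE 0.47, adjusted p = 0.802), without overlap in either case.

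Clec10a, a lectin for galactose and N-acetylgalactosamine (ENSMUSG00000000318, chr11:70156197-70170834, plus strand), followed the same order of groups. Clec10a was at 34.8, 24.9 and 57.4 CPM in flox vehicle and 174, 183 and 244 CPM in KO vehicle, so the lowest KO library was above the highest flox library, with a log2 difference of 2.36 (SE 0.47, adjusted p = 0.00487). Under MTX it was at 149, 162 and 40.1 CPM in flox and 309.8, 263 and 213 CPM in KO mice. Flox MTX replicate 4 was again within the flox vehicle range, and MTX differed from vehicle in flox mice by 1.59 (SE 0.46, adjusted p = 0.0340), a call that ended without flox vehicle replicate 3 (1.35). KO MTX exceeded flox MTX in every library, at 1.16 (SE 0.45, adjusted p = 0.153) by edgeR. Of the windows of 100 bases in its transcripts, 2.64% also occur in Mgl2, its close relative, so few reads could be shared between the pair.

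Folr2, the beta folate receptor, binds folate and antifolates at the surface of macrophages (ENSMUSG00000032725, chr7:101839988-101857194, minus strand). It was at 4.99, 3.30 and 10.2 CPM in flox vehicle and at 30.0, 45.0 and 68.5 CPM in KO vehicle. The lowest KO library was above the highest flox library, and the log2 difference of 2.96 (SE 0.62, adjusted p = 0.00579) was the largest of the 10 in this comparison. With MTX, Folr2 was at 26.7, 44.4 and 7.57 CPM in flox and 50.2, 83.4 and 44.8 CPM in KO mice. Flox MTX replicate 4, at 7.57 CPM, was below flox vehicle replicate 4, and the difference of MTX from vehicle was 2.10 (SE 0.60, adjusted p = 0.0338) in flox mice (1.80 and not called without flox vehicle replicate 3). KO MTX was above flox MTX in every library, at 1.18 (SE 0.57, adjusted p = 0.230). Folr2 shares 975 exon bases with Gm10602, a gene on the opposite strand that had 33 to 221 counts, and whether the counting used strand was not stated.

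Cd163 is the receptor for haemoglobin bound to haptoglobin (ENSMUSG00000008845, chr6:124304656-124330527, plus strand). It was at 19.1, 20.5 and 44.6 CPM in flox vehicle, 64.5, 63.6 and 72.4 CPM in KO vehicle, 72.7, 93.0 and 48.3 CPM in flox MTX and 69.1, 92.3 and 76.2 CPM in KO MTX. The flox vehicle libraries were the lowest 3 of the 12, and the other groups overlapped one another. KO exceeded flox under vehicle by 1.25 (SE 0.32, adjusted p = 0.0138) on the log2 scale, and MTX exceeded vehicle in flox mice by 1.35 (SE 0.32, adjusted p = 0.0169). The differences were 0.15 (SE 0.31, adjusted p = 0.799) between genotypes under MTX and 0.25 (SE 0.31, adjusted p = 0.886) between MTX and vehicle in KO mice.

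Lyve1 binds hyaluronan, a sugar polymer of the extracellular matrix (ENSMUSG00000030787, chr7:110850607-110863239, minus strand). Lyve1 was at 10.6, 8.69 and 24.6 CPM in flox vehicle and rose to 66.9, 57.3 and 74.3 CPM in KO vehicle and to 60.0, 99.0 and 45.0 CPM in flox MTX. No library of either group reached down into the flox vehicle range, and the log2 differences were 2.18 (SE 0.39, adjusted p = 0.00388) and 2.22 (SE 0.39, adjusted p = 0.00594). In KO MTX it was at 53.3, 48.5 and 70.5 CPM, which overlapped both KO vehicle and flox MTX. A list of 6 lymphatic endothelium genes summed to 29.8 to 43.0 CPM in flox vehicle, 63.6 to 91.9 CPM in KO vehicle, 39.5 to 72.5 CPM in flox MTX and 50.5 to 64.5 CPM in KO MTX. Of the 5 tested, 3 were called higher in KO under vehicle and 1 with MTX in flox mice, where 1 was called lower, and Ccl21a had at most 3 counts in every library. The part of lymphatic vessels in the Lyve1 values was not tested.

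Vsig4, a receptor for complement fragments on resident macrophages (ENSMUSG00000044206, chrX:96247203-96293438, minus strand), had the largest change with MTX. It was at 1.17, 0.590 and 0.970 CPM in flox vehicle and at 7.46, 14.4 and 6.94 CPM in flox MTX, with no overlap and a log2 difference of 3.39 (SE 0.42, adjusted p = 0.00331). The flox vehicle libraries held only 27, 15 and 21 counts of Vsig4, and the flox MTX libraries 158, 316 and 111. Unlike for Mrc1, Clec10a and Folr2, flox MTX replicate 4 stood clear of the flox vehicle libraries. In KO vehicle Vsig4 was at 3.98, 5.50 and 5.62 CPM, again above every flox vehicle library, by 2.47 (SE 0.41, adjusted p = 0.00326). In KO MTX it was at 6.48, 12.3 and 6.64 CPM, which overlapped flox MTX and lay above the KO vehicle libraries, with a log2 difference of 0.75 (SE 0.37, adjusted p = 0.657) from the latter.

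Marco, a scavenger receptor for bacteria and particles (ENSMUSG00000026390, chr1:120474538-120505024, minus strand), rose with MTX in flox mice and did not pass the test between genotypes. Marco was at 5.77, 2.04 and 4.62 CPM in flox vehicle and 4.54, 4.87 and 4.31 CPM in KO vehicle, and the KO libraries lay inside the flox range, with a log2 difference of 0.14 (SE 0.41, adjusted p = 0.823). In flox MTX it was at 12.7, 33.6 and 16.1 CPM, above every library of the other groups, and differed from flox vehicle by 2.33 (SE 0.43, adjusted p = 0.00656). In KO MTX it was at 7.53, 11.9 and 9.96 CPM, above every KO vehicle library and below every flox MTX library. The log2 differences were 1.10 (SE 0.41, adjusted p = 0.509) from KO vehicle and -1.09 (SE 0.41, adjusted p = 0.146) from flox MTX by edgeR. Without flox vehicle replicate 3, the lowest of the 12, the difference between genotypes under vehicle had the opposite sign (-0.18).

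Timd4, a receptor for phosphatidylserine on dying cells (ENSMUSG00000055546, chr11:46810800-46844332, plus strand), was the least abundant of the 10, with 6 to 74 counts per library. Timd4 was at 1.61, 0.236 and 0.970 CPM in flox vehicle and 1.36, 1.27 and 0.515 CPM in KO vehicle, and the groups overlapped, with a log2 difference of 0.17 (SE 0.65, adjusted p = 0.872) whose sign changed when replicate 3 of flox vehicle (-0.30) or replicate 1 of KO vehicle (-0.029) was left out. In flox MTX it was at 1.89, 3.36 and 4.56 CPM, above every flox vehicle library, by 1.80 (SE 0.65, adjusted p = 0.0735). That call ended without flox vehicle replicate 3 or 4 or flox MTX replicate 2 or 4, at log2 differences of 1.34, 1.84, 1.79 and 1.49. In KO MTX Timd4 was at 1.13, 2.82 and 1.31 CPM and overlapped the other 3 groups. A list of 7 genes of body cavity macrophages, a cell type that Marco and Timd4 also mark, summed to 29.3 to 51.2 CPM in flox vehicle, 42.5 to 70.0 CPM in KO vehicle, 42.5 to 75.1 CPM in flox MTX and 36.4 to 51.4 CPM in KO MTX, with 1 gene called higher and 1 lower between genotypes under vehicle and 1 higher with MTX in flox mice.

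Retnla encodes the secreted protein RELM-alpha, a product of alternatively activated macrophages (ENSMUSG00000061100, chr16:48842551-48844461, plus strand). It was at 47.8, 114 and 351 CPM in flox vehicle, 166, 85.8 and 69.5 CPM in KO vehicle, 174, 194 and 168 CPM in flox MTX and 119.9, 49.0 and 118 CPM in KO MTX. The flox vehicle libraries spanned both the lowest and the highest value of the 12, whereas the flox MTX libraries lay close together, at 179 ± 13.9 CPM. Retnla passed no test: the log2 differences were -0.67 (SE 0.60, adjusted p = 0.431) between genotypes under vehicle and 0.06 (SE 0.60, adjusted p = 0.950) for MTX in flox mice, and both changed sign when a single flox vehicle library was left out (0.42 without replicate 4 in the first, and -0.38 without replicate 1 or -0.16 without replicate 3 in the second). Under MTX every KO library was below every flox library, with a log2 difference of -0.90 (SE 0.61, adjusted p = 0.376).

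Cbr2, a carbonyl reductase, is the enzyme of the set (ENSMUSG00000025150, chr11:120729489-120732114, minus strand). Cbr2 was at 20.96, 31.0 and 43.6 CPM in flox vehicle and 61.0, 58.1 and 52.4 CPM in KO vehicle, without overlap, and the log2 difference of 0.84 (SE 0.28, adjusted p = 0.0423) was not called without flox vehicle replicate 1 or 3 (0.62 and 0.82). In flox MTX it was at 79.2, 64.3 and 44.5 CPM, above every flox vehicle library, by 0.98 (SE 0.28, adjusted p = 0.0335), and this was not called without flox vehicle replicate 3 or flox MTX replicate 1 (0.96 and 0.77). In KO mice the direction was the other one: Cbr2 was at 45.9, 29.9 and 45.3 CPM in KO MTX, below every KO vehicle library, with a log2 difference of -0.50 (SE 0.28, adjusted p = 0.701). Of its windows of 100 bases, 5.37% also occur in Gm11771, which had 0 to 2 counts.

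**Figure D2:**
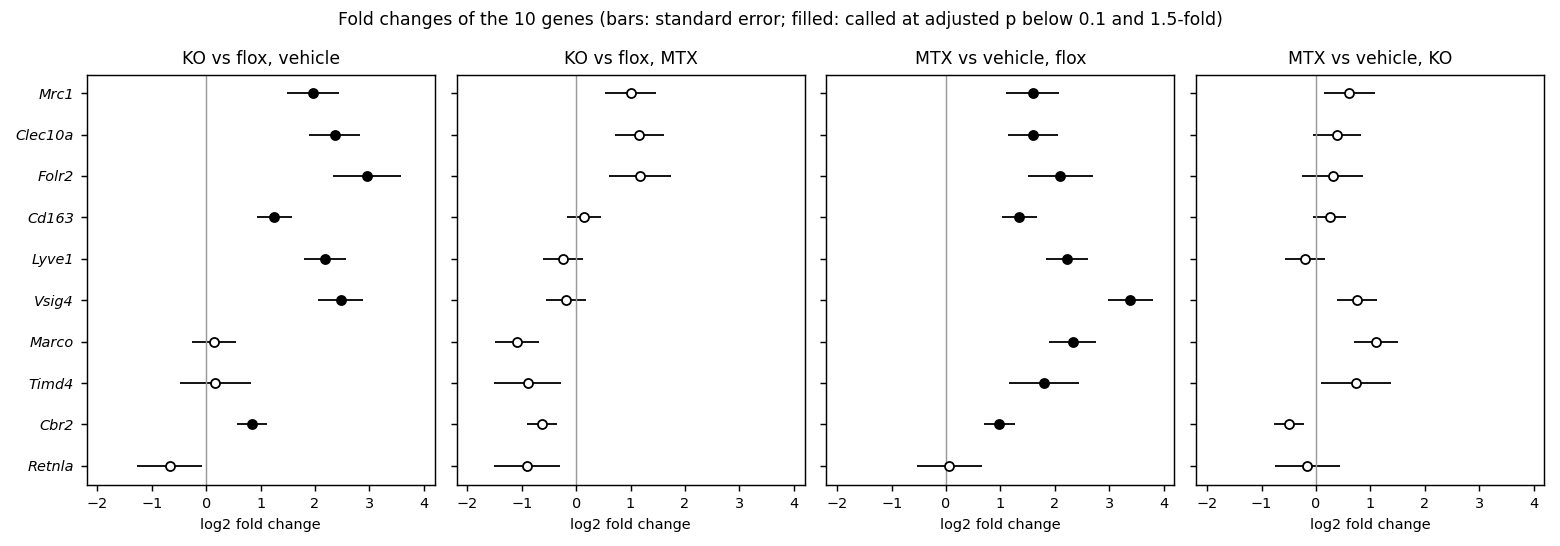
Log2 fold change of each gene in the 4 pairwise comparisons, with bars for the standard error, and filled points for genes called at an adjusted p below 0.1 and 1.5-fold. KO against flox under vehicle has 7 filled points and MTX against vehicle in flox mice has 9, up to 3.39 for Vsig4, and the other comparisons have none.

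The effect of MTX differed between the genotypes for Vsig4 and Lyve1. The interaction, which is the MTX difference in KO mice less that in flox mice, was -2.64 (SE 0.54, adjusted p = 0.0847) for Vsig4 and -2.43 (SE 0.54, adjusted p = 0.0969) for Lyve1 on the log2 scale. Of all genes tested, 0.989% were called for the interaction and 0.0909% were called with a negative value. Cbr2, at -1.48 (SE 0.39, adjusted p = 0.137), was not called by edgeR with these settings. DESeq2 called it (-1.47, adjusted p = 0.0222), as did edgeR with no filter on low counts (-1.51, adjusted p = 0.0748). The values of the other 7 were negative too, from -1.79 for Folr2 to -0.23 for Retnla, and Retnla's turned positive (0.21, 0.22 and 0.079) when replicate 1 of flox vehicle, replicate 1 of KO vehicle or replicate 3 of KO MTX was left out. Negative values were not particular to the members: their median interaction was -1.22, against -1.58 over the 16 general macrophage genes, of which 1 was positive, -1.23 over 12 genes of lipid-associated macrophages, of which 0 were positive, and -0.051 over all genes tested. For Vsig4, MTX was associated with a log2 difference of 3.39 in flox and 0.75 in KO mice. For Lyve1 the same differences were 2.22 and -0.20. Both calls were close to the threshold, and neither held when counts were scaled by library size alone. Neither gene was called without flox vehicle replicate 1 or 3, without any 1 of the KO vehicle libraries, without flox MTX replicate 2 or without KO MTX replicate 2 or 4, and Lyve1 was also not called without flox MTX replicate 1 or KO MTX replicate 3. Without flox vehicle replicate 4, 4 members were called (Vsig4, Lyve1, Cbr2 and Cd163, the last at -1.61), in a fit where 7.07% of all genes were called.

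To set the members against general macrophage RNA, each was divided by the summed CPM of the 16 general macrophage genes in the same library. On this scale the members separated. Mrc1, the first of those that kept close to the list, was at 41.4, 44.7 and 68.1 CPM per 1000 CPM of the list in flox vehicle, 35.7, 32.9 and 31.9 in KO vehicle, 51.0, 36.6 and 54.2 in flox MTX and 37.0, 33.5 and 38.4 in KO MTX. The KO minus flox difference of its log2 ratio under vehicle was -0.58, without overlap, although its level was higher in KO. Clec10a and Folr2 moved still less: the KO minus flox difference of the log2 ratio under vehicle was -0.26 for Clec10a and 0.35 for Folr2, and the Folr2 groups overlapped.

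Marco, by contrast, was at 6.01, 2.94 and 3.49 CPM per 1000 CPM of the list in flox vehicle and at 0.893, 0.889 and 0.509 in KO vehicle. Its values were 3.58, 5.14 and 13.6 in flox MTX and 0.876, 1.05 and 1.42 in KO MTX. Relative to the list, Marco was thus lower in every KO library than in every flox library, with log2 differences of -2.42 under vehicle and -2.53 under MTX. Cd163, Timd4, Retnla and Cbr2 had the same order under both treatments, with KO minus flox differences of -1.32, -2.26, -3.00 and -1.78 under vehicle and of -1.36, -2.48, -2.56 and -2.17 under MTX. In all, 7 of the 10 were lower without overlap in KO vehicle than in flox vehicle. With the geometric mean of the list as the denominator 6 were, and the Clec10a groups overlapped. Between KO and flox the list rose by a median log2 fold change of 2.82 under vehicle, against -0.056 over all genes tested. Under MTX the list's median was 1.28, against -0.045 over all genes. A gene with an unchanged level would therefore also be lower on this scale, and the share of all genes that were lower was not counted. Adgre1 and Csf1r, which are themselves genes of the list, were also lower without overlap in KO vehicle, with differences of -0.19 and -0.34, and that of Clec10a lay between them. Each of these comparisons had an exact permutation p of 0.1 (two-sided), the smallest that 3 against 3 libraries allow.

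Vsig4 and Lyve1 behaved differently relative to the list. Vsig4 was at 1.22, 0.848 and 0.733 CPM per 1000 CPM of the list in flox vehicle, 0.783, 1.00 and 0.664 in KO vehicle, 2.11, 2.19 and 5.89 in flox MTX and 0.755, 1.09 and 0.944 in KO MTX. It was the only member whose ratio was higher with MTX than with vehicle in flox mice without overlap (1.72 on the log2 scale, exact permutation p = 0.1). Lyve1 was at 11.03, 12.5 and 18.6 in flox vehicle, 13.2, 10.5 and 8.78 in KO vehicle, 17.0, 15.1 and 38.2 in flox MTX and 6.21, 4.30 and 10.02 in KO MTX. The KO MTX libraries were below the flox MTX libraries for both genes, with log2 differences of -1.71 for Vsig4 and -1.73 for Lyve1. In CPM both genes overlapped between these groups, whereas the list was higher in KO (median log2 fold change 1.28, 0 of 16 genes called). The ratios therefore carry the difference of the list. Flox MTX replicate 4 had the highest ratio of its group for every member except Clec10a and Folr2, and was also the library of its group with the least macrophage RNA.

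**Figure D3:**
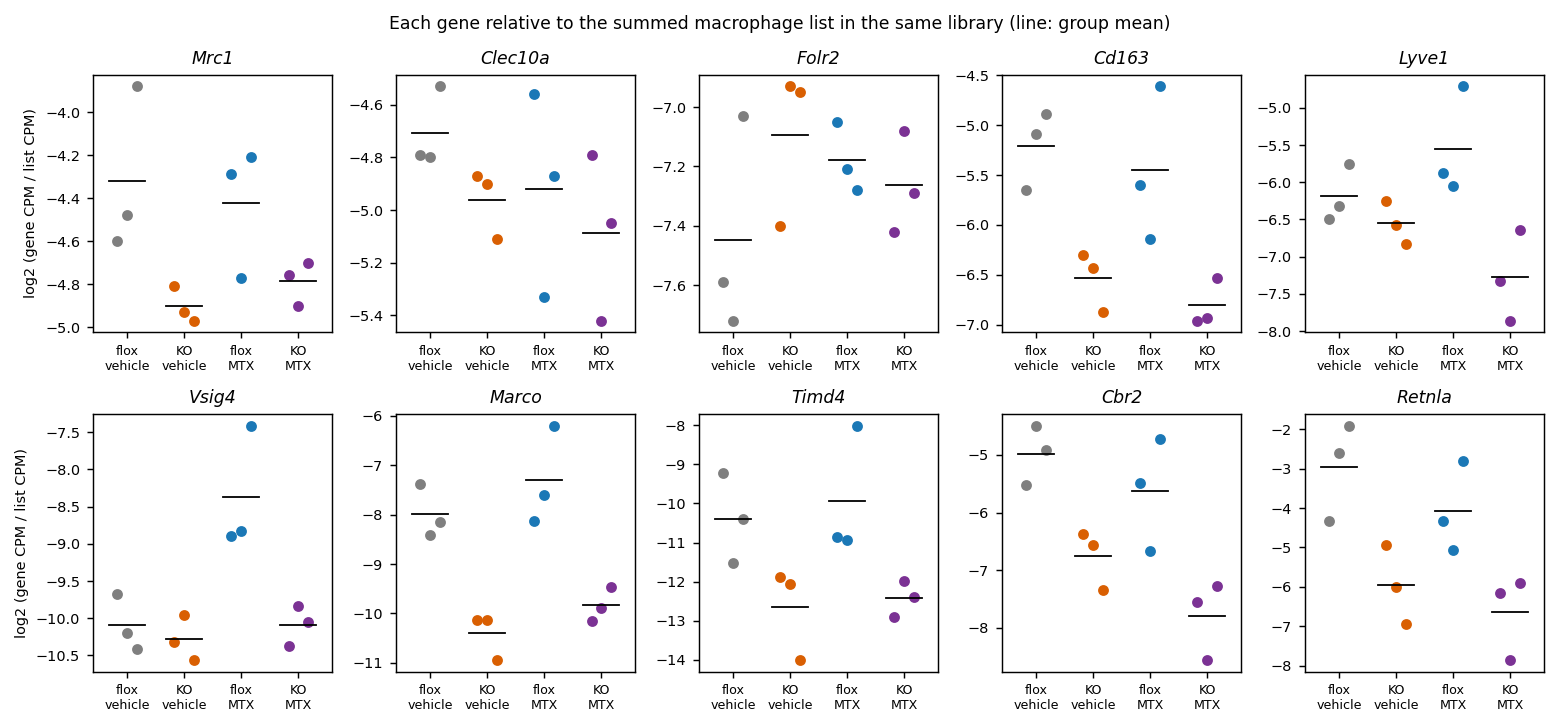
Log2 ratio of each gene to the summed CPM of 16 general macrophage genes in the same library, by group, with 1 point per library and a line at the group mean. For Cd163, Timd4, Cbr2, Marco and Retnla the KO libraries lie below the flox libraries under both treatments, and for Vsig4 the flox MTX libraries lie above the other 3 groups.

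**Figure D4:**
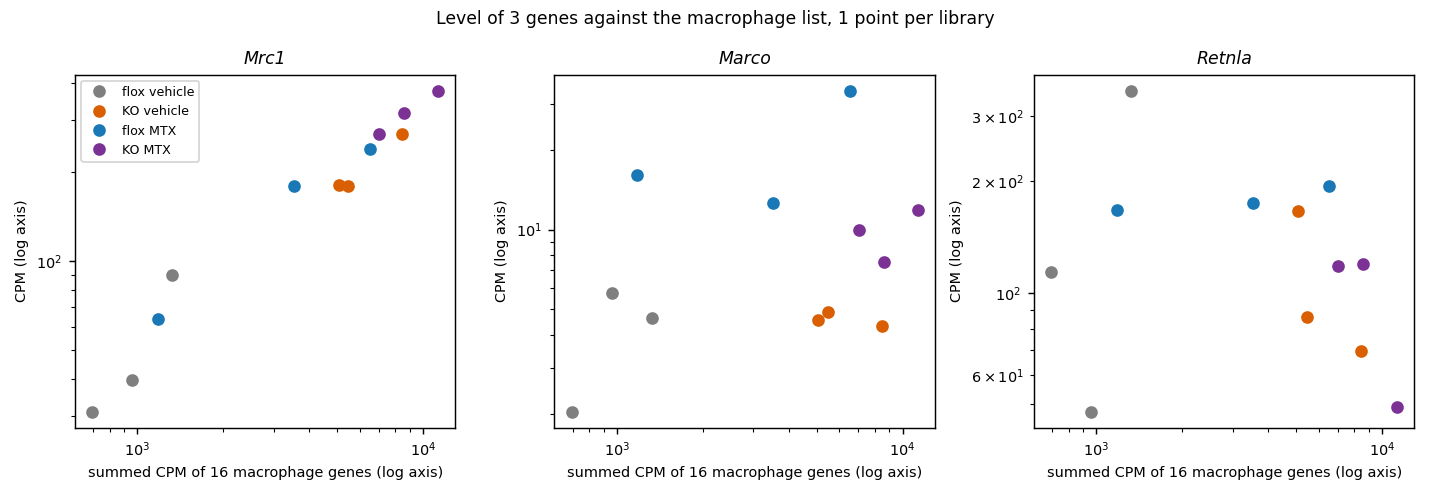
CPM of Mrc1, Marco and Retnla against the summed CPM of the 16 macrophage genes, both on log axes, with 1 point per library. Mrc1 rises with the list over the 12 libraries, whereas Marco is highest in flox MTX (12.7 to 33.6 CPM) and Retnla spans 47.8 to 351 CPM within flox vehicle, where the list summed to 695.7 to 1323 CPM.

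The general macrophage genes themselves give the scale. Of the 16, 15 were called higher in KO than in flox under vehicle (median log2 fold change 2.82) and 14 with MTX in flox mice (median 1.95), and 0 in the other comparisons by edgeR. Adgre1, which encodes F4/80, was at 29.0, 17.4 and 33.7 CPM in flox vehicle and 125, 136 and 178 CPM in KO vehicle, a log2 difference of 2.46 (SE 0.61, adjusted p = 0.0124). Csf1r, the receptor for the growth factor of macrophages, differed by 2.31 (SE 0.48, adjusted p = 0.00563) between the same groups. Of 12 genes of lipid-associated macrophages, 12 were called higher in KO under vehicle (median 3.09) and 6 with MTX in flox mice (median 1.53). Trem2 among them was at 27.2, 14.4 and 23.8 CPM in flox vehicle, 247, 288 and 526 CPM in KO vehicle, 124, 302 and 11.2 CPM in flox MTX and 406, 581 and 334 CPM in KO MTX, with a log2 difference of 4.02 (SE 0.87, adjusted p = 0.00669) between genotypes under vehicle. The median of the 10 members was below both lists under vehicle (1.61), and with MTX in flox mice it lay between them (1.69). Of 8 monocyte genes, 3 were called higher in KO under vehicle and 4 with MTX in flox mice.

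A wider list of 25 further genes of resident macrophages had smaller medians than the members, and the part of other cells in its values was not tested. Of these, 15 were called higher in KO than in flox under vehicle (median 0.97) and 13 with MTX in flox mice (median 0.87), none was called lower, and none was called in the other comparisons by edgeR. Those with an unadjusted p below 0.05 numbered 6 between genotypes under MTX, 1 for MTX in KO mice and 8 for the interaction. Among those called under vehicle whose groups did not overlap were Il10, the gene of an anti-inflammatory cytokine (a log2 difference of 3.08), and Stab1, a scavenger receptor (2.27). Il10 had a low level throughout, at 0.347, 0.118 and 0.0923 CPM in flox vehicle and 0.806, 1.69 and 2.34 CPM in KO vehicle. With MTX in flox mice the largest changes without overlap were in Fcna, a ficolin (2.39), Il10 (2.02) and Gas6, a bridging protein for dying cells (1.32). Fcna was at 10.8, 5.23 and 8.59 CPM in flox vehicle and 35.2, 68.5 and 25.4 CPM in flox MTX, and its interaction of -2.34 (SE 0.57, adjusted p = 0.115) was close to those of Vsig4 and Lyve1 without being called.

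Relatives of the members did not all move with them. Msr1, a scavenger receptor of the same class as Marco, was at 8.11, 4.13 and 7.48 CPM in flox vehicle and 34.9, 35.6 and 62.2 CPM in KO vehicle, a log2 difference of 2.75 (SE 0.48, adjusted p = 0.00358), against 0.14 for Marco. Cd44, another hyaluronan receptor, differed by 2.46 (SE 0.47, adjusted p = 0.00458). Folr1, the alpha folate receptor, had the opposite direction to Folr2: it was at 3.04, 6.76 and 5.77 CPM in flox vehicle and at 1.51 ± 0.260 CPM (mean ± SD, n = 3) in KO vehicle, lower in KO in every library, with a log2 difference of -1.77 (SE 0.49, adjusted p = 0.0192). Folr1 is an epithelial gene, epididymis genes were present in the same flox vehicle libraries, and their part in this difference was not tested. Retn, the gene of the adipocyte hormone resistin, was also lower in KO under vehicle, at -1.87 (SE 0.73, adjusted p = 0.0767), and its relatives Retnlb and Retnlg had 0 to 2 and 0 to 27 counts. Mgl2, Dcxr and Mrc2 were called in no comparison, with log2 differences under vehicle of 0.05, -0.55 and 0.40, and Havcr1, at 0 to 6 counts, did not pass the filter.

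Of 13 genes that encode ligands, partners or growth factors of the members, 5 were called higher and 1 lower in KO under vehicle, and 5 higher with MTX in flox mice. Of 11 tested genes of the interleukin 4 and interleukin 13 axis, which induces Retnla, Clec10a and Mrc1, 3 were called higher in each of these comparisons, with medians of 0.56 and 0.44. Dendritic cells, which also carry Clec10a and Mrc1, gave 4 of 8 genes higher and 1 lower in KO under vehicle, and 3 higher with MTX in flox mice. Of 5 tested eosinophil genes, 2 were higher in each comparison, and Epx, a defining gene of that cell, had at most 3 counts in every library. Over all genes tested, 13.9% were called higher and 17.8% lower in KO under vehicle. With MTX in flox mice these shares were 8.09% and 16.1%. Lists this small cannot be set apart from those shares by a few calls. The part of these cells in the members' values was not tested.

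Over the 12 libraries, which share the 4 groups and the differences in macrophage content described above, the members fell into sets by Pearson correlation of log2 CPM, given here as a description. Mrc1, Clec10a and Folr2 correlated with one another at 0.981 to 0.984. Their nearest genes were H2-Aa (0.994) and Ccl6 (0.993) for Mrc1, Naip2 (0.994) and Ccl9 (0.993) for Clec10a, and Csf1r (0.993) and Dock2 (0.993) for Folr2. Cd163 correlated with Lyve1 at 0.950, and Prss23 was among the nearest genes of both (0.969 and 0.967), beside Cd86 (0.972) for Cd163 and Ms4a8a (0.966) for Lyve1. Vsig4 was nearest to Abcb1b (0.965) and Fcna (0.961). Marco was nearest to Igkv10-96 (0.973) and Jchain (0.966), genes of antibody-secreting cells, and correlated with Timd4 at 0.872. Timd4 was nearest to Ston1 (0.936) and Igkv19-93 (0.918), and Cbr2 to Bdnf (0.962) and Vegfd (0.960). Retnla stood apart from the other 9, with correlations of -0.182 to 0.569, and was nearest to Gm43069 (0.974) and Tsc22d2 (0.961).

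The 250 bases upstream of the RefSeq start sites were read for 8 of the members from RefSeq promoters of GRCm38.p6, 9 promoters in all, and searched on both strands for GAGGAA, a core of sites for the macrophage factor PU.1, TGCTGA, part of sites for the MAF factors, and TTC and GAA separated by 4 bases, a STAT site. A match describes the letters alone. GAGGAA or its complement was in 5 of the 8 members (Mrc1, Vsig4, Retnla, Cbr2 and Marco) and in 23.3% of 32851 promoters of the same length. TGCTGA was in 3 (Timd4, Folr2 and Retnla) and in 16.1% of all promoters. The STAT pattern was in Retnla alone and in 5.85% of all promoters. The windows of Mrc1 and Vsig4, which rose in KO mice under vehicle and with MTX in flox mice, Marco, which rose with MTX in flox mice, and Retnla, which passed no test, are printed 5′ to 3′ on the strand of the gene, up to the base before the first annotated start, with matches in capitals. They lie at chr2:14229164-14229391 (plus strand), chrX:96293439-96293688 (minus strand), chr1:120505025-120505274 (minus strand) and chr16:48842359-48842550 (plus strand). No matches overlapped.
Mrc1: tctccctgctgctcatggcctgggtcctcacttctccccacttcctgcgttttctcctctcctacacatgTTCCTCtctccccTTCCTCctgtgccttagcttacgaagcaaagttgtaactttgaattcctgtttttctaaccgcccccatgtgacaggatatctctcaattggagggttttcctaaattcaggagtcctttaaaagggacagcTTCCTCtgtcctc
Vsig4: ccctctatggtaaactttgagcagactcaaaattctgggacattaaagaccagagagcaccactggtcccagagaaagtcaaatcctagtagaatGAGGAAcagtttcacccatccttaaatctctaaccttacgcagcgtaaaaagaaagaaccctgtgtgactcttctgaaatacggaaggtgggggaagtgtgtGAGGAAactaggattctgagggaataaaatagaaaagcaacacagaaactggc
Marco: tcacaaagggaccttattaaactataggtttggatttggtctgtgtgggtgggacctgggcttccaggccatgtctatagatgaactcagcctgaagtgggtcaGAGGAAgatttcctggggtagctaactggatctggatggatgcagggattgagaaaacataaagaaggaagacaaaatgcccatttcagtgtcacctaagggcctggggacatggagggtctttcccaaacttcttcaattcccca
Retnla: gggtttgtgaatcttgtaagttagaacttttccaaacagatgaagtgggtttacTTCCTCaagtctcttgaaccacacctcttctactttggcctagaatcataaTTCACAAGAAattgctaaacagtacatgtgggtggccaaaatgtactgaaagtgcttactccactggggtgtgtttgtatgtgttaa
In Mrc1 there were 3 matches to GAGGAA, all on the opposite strand, and in Vsig4 there were 2 on the strand of the gene. Retnla held the STAT pattern and, further upstream, the complement of GAGGAA. Its match to TGCTGA lay 47 to 42 bases upstream of the RefSeq start, past the first annotated start, and so is not in the 192 bases printed.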

How the data were processed

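RNA from white adipose tissue of mice was sequenced in 12 libraries, 3 in each of 4 groups taken from the sample labels. The submitters' processing notes name Trimmomatic 0.36, STAR 2.5.2b and featureCounts of Subread 1.5.2, with GRCm38 as the build. The deposited values are raw counts per Ensembl gene, which the authors made without normalization. Whether reads were counted by strand, and how reads with several matches were counted, is not given in the sources used here. The methods describe ribodepletion and the labels polyA RNA, and which applies is not known.

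From the counts (19495310 to 23976469 per library), CPM were computed with TMM factors and divided by union exon length (GENCODE M21) to compare levels between genes. The tests used edgeR 4.0.16 in R 4.3.3 (filterByExpr by group, 18702 genes tested, 1 coefficient per group over 12 libraries, quasi-likelihood F-test, Benjamini-Hochberg adjustment over all genes tested). Genotypes were compared under each treatment, and with vehicle in each genotype, and the interaction was tested. A call needed a change of 1.5-fold or more with an adjusted p below 0.1, and the SE is the log2 fold change over the square root of F. Ratios to the macrophage list were compared with an exact permutation test. The procedure was tested on simulated data. The alternatives included DESeq2 1.42.0, scaling by RLE factors or by library size, other filters and thresholds, a block for the replicate number, a fit of only the 6 libraries compared, and each library left out in turn.

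Named genes are all members, Adgre1, Csf1r, Trem2, the members' relatives, the 3 called genes of the wider list with the largest change without overlap, and the 2 genes that correlate most with each member. A gene that this rule names is not reported here. The members and all lists were chosen with earlier results of these data known. Nothing in the labels ties the libraries to separate animals, so p-values measure the spread between these libraries, which may be technical. No pair of libraries within a group agreed within sampling noise (the lowest chi-square per degree of freedom was 14.1).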

Additional observations from a re-analysis of the deposited data

Results flagged for a closer look

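The effect of MTX differed between flox and KO mice for 2 of the 10 genes by the test of the interaction in edgeR, over all 18702 genes tested. For Vsig4 the MTX difference in KO mice less that in flox mice was -2.64 on the log2 scale (SE 0.54, adjusted p = 0.0847), with 3.39 in flox and 0.75 in KO mice, and MTX libraries lay above the vehicle libraries in both genotypes. For Lyve1 it was -2.43 (SE 0.54, adjusted p = 0.0969), with 2.22 in flox and -0.20 in KO mice, where the groups overlapped. Neither gene was called in 8 of the 12 fits that left out 1 library, with the replicate block, when a minimum of 10 counts in every library was set, or when scaling used library size alone. In KO mice both genes already stood above the flox vehicle level under vehicle. The flox vehicle libraries, which hold epididymis RNA, enter both interactions, and its part in them was not tested.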

How the results depend on the processing

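For KO against flox under vehicle, 6 to 7 of the 10 genes were called with 1 library left out. Under MTX the count was 0 with all libraries, 0 to 3 with 1 left out, 2 with DESeq2 and 1 (Marco) without flox vehicle replicate 3 and flox MTX replicate 1. For MTX in flox mice it was 9, with 4 to 9 with 1 library left out, 3 from the 6 libraries of the comparison alone, 3 without the pair of libraries named above and 4 with the replicate block, which ended the calls of Cbr2, Clec10a, Folr2, Mrc1 and Timd4. For the interaction it was 2, with 0 to 4 with 1 library left out, 3 with DESeq2 and 3 with no filter on low counts (both adding Cbr2), and 0 when scaled by library size, with at least 10 counts in every library, at an adjusted p below 0.05, without that pair and with the replicate block. For MTX in KO mice it was 0 throughout. With 1 library left out, the share of all genes called also moved. It was 23.7% to 35.0% between genotypes under vehicle and 0% to 20.8% between them under MTX. For MTX in flox mice it was 11.7% to 30.9%, and for the interaction 0.0256% to 7.07%. The replicate numbers did not pair the libraries: deviations of 12 pairs with the same number correlated at a median of 0.0353, and 42 other pairs at 0.0112. The block changed no call between genotypes under vehicle. A minimum of 10 counts in every library removed Timd4 from the test. Over all genes, the count between genotypes under MTX was 0, but 2740 with DESeq2, 875 when all genes were kept, 1491 with the minimum of 10 and 4 from the 6 libraries alone. For MTX in flox mice it was 4528, but 2198 with the minimum of 10, 2771 with the block, 2791 at a log2 limit of 1.5 and 2167 from the 6 libraries alone, and for the interaction 185, but 1225 with DESeq2, 472 when all genes were kept, 1 with the minimum of 10, 0 with the block and 33 at an adjusted p below 0.05. Scaling by library size moved the median log2 change of all genes from 0.05 to -0.15 for MTX in flox mice, from -0.05 to 0.12 between genotypes under MTX and from -0.05 to 0.13 for the interaction. Relative to the macrophage list, 7 to 8 genes were lower in KO with 1 library left out. The cause of these changes was not tested.

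Changes of sign were seen in differences that were not called. Without the pair of libraries, KO against flox under vehicle gave -0.30 for Timd4 and -0.18 for Marco, and MTX in flox mice gave -0.14 for Retnla, which was -0.12 with library size alone. With 1 library left out, differences between genotypes under vehicle ranged from -0.30 to 0.81 for Timd4 (-0.029 in between), from -0.18 to 0.46 for Marco and from -1.11 to 0.42 for Retnla. Between genotypes under MTX they ranged from -0.058 to 0.39 for Cd163, from -0.46 to 0.13 for Lyve1 and from -0.55 to 0.24 for Vsig4. With MTX they ranged from -0.38 to 1.16 (-0.16 in between) for Retnla in flox mice, and in KO mice from -0.009 to 0.67 for Folr2 and from -0.39 to 0.29 (0.15 in between) for Retnla. The interaction of Retnla ranged from -1.32 to 0.22 (0.21 and 0.079 in between). With 3 libraries per group, depth limits Timd4 most, at 6 to 74 counts per library. Vsig4 was low in flox vehicle too, at 27, 15 and 21 counts. Intervals of counting error were not used, since the spread between libraries is larger.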
